A study of Mus musculus with 6 samples.

Results

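The stimulatory G protein alpha subunit, 4 adenylyl cyclases and 5 subunits of protein kinase A (PKA) were followed in mouse induced regulatory T cells (iTreg) after prostaglandin E2 (PGE2). The 10 genes, Gnas, Adcy3, Adcy6, Adcy7, Adcy9, Prkaca, Prkacb, Prkar1a, Prkar2a and Prkar2b, were taken by name from the 47643 annotated gene IDs of the gene tables, and each was found in all 6 libraries. The study cultured splenic CD4+ T cells for 2 days with plate-bound antibody to CD3, soluble antibody to CD28 and TGF-β. The cells then received vehicle (DMSO) or 100 nM PGE2 for 6 h, and Foxp3+ cells were sorted on GFP, with 3 libraries per group. All cells, vehicle included, came from C57BL/6 mice of the Foxp3-DTR/EGFP genotype, in which a reporter marks cells that express Foxp3, the transcription factor of regulatory T cells. The labels do not give the age of the mice, nor do they say if replicates stem from different mice or cultures. The p-values therefore speak only for the spread among these 6 libraries, which may be technical. The series' title ties the experiment to the PGE2 receptors EP2 and EP4, and the comparison here asks whether the genes that carry the signal of such receptors differ in transcript level after PGE2.

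EP2 and EP4 couple to the stimulatory G protein, whose alpha subunit activates membrane adenylyl cyclases, and these make cAMP from ATP. PKA rests as a tetramer in which a dimer of regulatory subunits holds a pair of catalytic subunits inactive. Binding of cAMP to the regulatory subunits frees the catalytic subunits, which phosphorylate CREB and many other substrates. In T cells this route is known for dampening signals from the antigen receptor, and type I regulatory subunits are recruited there to the membrane while type II subunits bind more tightly to anchoring proteins.

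None of the 9 genes of the set that could be tested passed the threshold after 6 h of PGE2, in either direction. Of all tested genes 0.809% passed it, so 0 of 9 is close to the share of genes in general. Prkar1a and Prkar2a, 2 of the 3 regulatory subunits of the set, came nearest, in opposite directions. Prkar1a sat 1.19-fold above vehicle and Prkar2a at 0.706 times vehicle on the log2(FPKM + 1) scale. The groups did not overlap for either gene. Over all tested genes the groups did not overlap for 19.7%, so 2 of 9 is close to the share of genes in general. Gnas, the 3 tested cyclases, both catalytic subunits and Prkar2b had 95% intervals that included no change. In bulk RNA, fewer cells that express a gene and less RNA per cell cannot be told apart. Outside the set, 1 gene of the fixed pathway lists rose, of 17 tested in its own list, beside 0.57% of all tested genes. It was Gnal, which encodes the other alpha subunit of the stimulatory class. Gnal went from 6.94 ± 1.23 to 17.9 ± 3.04 FPKM (SD, n = 3). That call was lost in 5 of 14 alternatives, 4 of which left out a library, with adjusted p of up to 0.13 by limma.

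Promoters of the set were inspected for the cAMP response element, the site that CREB binds, because PKA acts on transcription through it. RefSeq windows (GRCm38.p6) of 300 bases, from 250 before to 50 after each annotated start, were matched by symbol for 9 of the 10 genes (not Adcy6), 24 windows in all. The full palindrome TGACGTCA was found in 2 overlapping windows of 1 gene, Prkar1a, and in 1.79% of 32851 windows of all genes. Its core TGACG, on either strand and also counted inside the palindrome, was found in 11 of the 24 windows, against 20.8% of all windows. Some windows of Gnas and of Prkar1a overlap each other and share a match, so the same letters were counted more than once. By gene it was found in 7 of 9, against 23% of 27025 genes, but the set had more windows per gene (2.67 on average, against 1.22). The windows of the set were also richer in CpG, with a median of 22.5 CpG dinucleotides against 7 over all windows. The match of each gene that lay nearest to a RefSeq start, and for Gnas also that before the start of the stimulatory alpha subunit, is shown as 30 bases in the direction of the gene with the matched letters in capitals, so that the palindrome of Prkar1a can be set beside the single cores of the other genes.
Prkar1a (chr11:109650889-109650918, + strand): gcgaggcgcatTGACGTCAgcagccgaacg
Prkar2a (chr9:108692127-108692156, + strand): cgcggccgcgtgCGTCAcaacccgggcgcc
Prkaca (chr8:83972960-83972989, + strand): gggctgcgggggCGTCAcggacagaggact
Prkacb (chr3:146813031-146813060, - strand): ggggcttgaccgCGTCActtccggcgcgcc
Gnas, alternative first exon (chr2:174327699-174327728, + strand): aagaggttggggCGTCAtcaggctggttag
Gnas, stimulatory alpha subunit (chr2:174329778-174329807, + strand): cgtgtgaggggtCGTCAccaccgcggggcc
Adcy7 (chr8:88282952-88282981, + strand): tgatcatagagcCGTCAggggggtggggct
Adcy9 (chr16:4420505-4420534, - strand): cggacccggcggTGACGtgcgcgggccgcg

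The Prkar1a palindrome begins 49 bases before a RefSeq start at 109650949, but it lies past another RefSeq start of the gene at 109650862. The core of Prkar2a begins 4 bases before its start at 108692143. The Prkar1a locus assembled from the libraries began further upstream, at a median of 1544 bases before the RefSeq start at 109650949. The window nearest to the assembled start held a single core. The RefSeq start of the Adcy7 match shown lay 10589 bases past the median assembled start. Those of the Gnas matches lay 179 and 2436 bases past it, and that of Prkacb 44 bases. For Prkar2a and Prkaca the RefSeq start was the median assembled start, and for Adcy9 it lay upstream. No match was found in the windows of Adcy3 and Prkar2b. These are matches of letters and not sites shown to be bound, and the absence of a match holds only for these windows.

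Levels are in FPKM (fragments per kilobase, scaled to the library), a unit that corrects for gene length and allows different genes to be set side by side. The files hold no read totals. The ratio of coverage to FPKM, which grows with depth, was 3.996 to 5.12 in the vehicle and 4.54 to 5.45 in the PGE2 libraries, with vehicle replicate 3 the shallowest. The labelled cell type was checked on marker genes. Foxp3 was at 92.1 ± 14.4 and 115 ± 22.5 FPKM, Cd4 at 161 ± 3.74 and 176 ± 16 FPKM, and Cd3e, a chain of the T cell receptor complex, at 146 ± 1.9 and 154 ± 6.62 FPKM with vehicle and PGE2. The 6 T cell and Treg markers summed to 1405 to 1498 FPKM with vehicle and 1594 to 1642 with PGE2, and 1 of them, Ctla4, an inhibitory receptor of T cells, rose (adjusted p = 0.0076 with limma). All myeloid markers together summed to at most 0.934 FPKM, the erythroid and platelet markers to at most 2.87 FPKM, and Ncr1, Klrb1c, Pf4 and Ppbp were listed at 0 in every library. The 4 B cell markers summed to 3.83 to 5.7 FPKM with vehicle and 3.55 to 4.33 with PGE2, most of it Cd79b. The 5 NK and CD8 T cell markers summed to 6.19 to 8.06 FPKM with vehicle and 8.46 to 11.1 with PGE2, most of it Cd8b1 and Klrd1. Of these, Klrd1, a receptor subunit of NK and activated T cells, was at 1.46 ± 1.16 and 3.1 ± 1.22 FPKM, with an adjusted p = 0.38 by limma that became 0.033 with the replicate block. The T cell and the NK and CD8 sums did not overlap between the groups, and their part in the results below was not tested. Of the 6 T cell and Treg markers, the groups did not overlap for 1, Ctla4, at 199 ± 7.14 and 345 ± 5.93 FPKM. Il2ra, the highest of them, was lower with PGE2, at 691 ± 59.6 and 640 ± 27.6 FPKM. The T cell sum is thus no measure of T cell content apart from Ctla4. Over all tested genes the groups did not overlap for 19.7%.

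The levels of the set spanned a wide range. Gnas was highest, followed by Prkar1a, then Prkaca and Prkacb, whose ranges overlapped with vehicle while Prkaca lay above Prkacb with PGE2, then Adcy7. Prkar2a and Adcy3 came next and also overlapped in both groups. Adcy6 lay below Adcy3 with vehicle and overlapped it with PGE2, and Prkar2b and Adcy9 closed the order. Adcy9 had a mean of 0.266 FPKM over the 6 libraries and was the 1 gene under the minimum mean of 1 FPKM set for testing, so 9 of the 10 were tested.

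**Figure D1:**
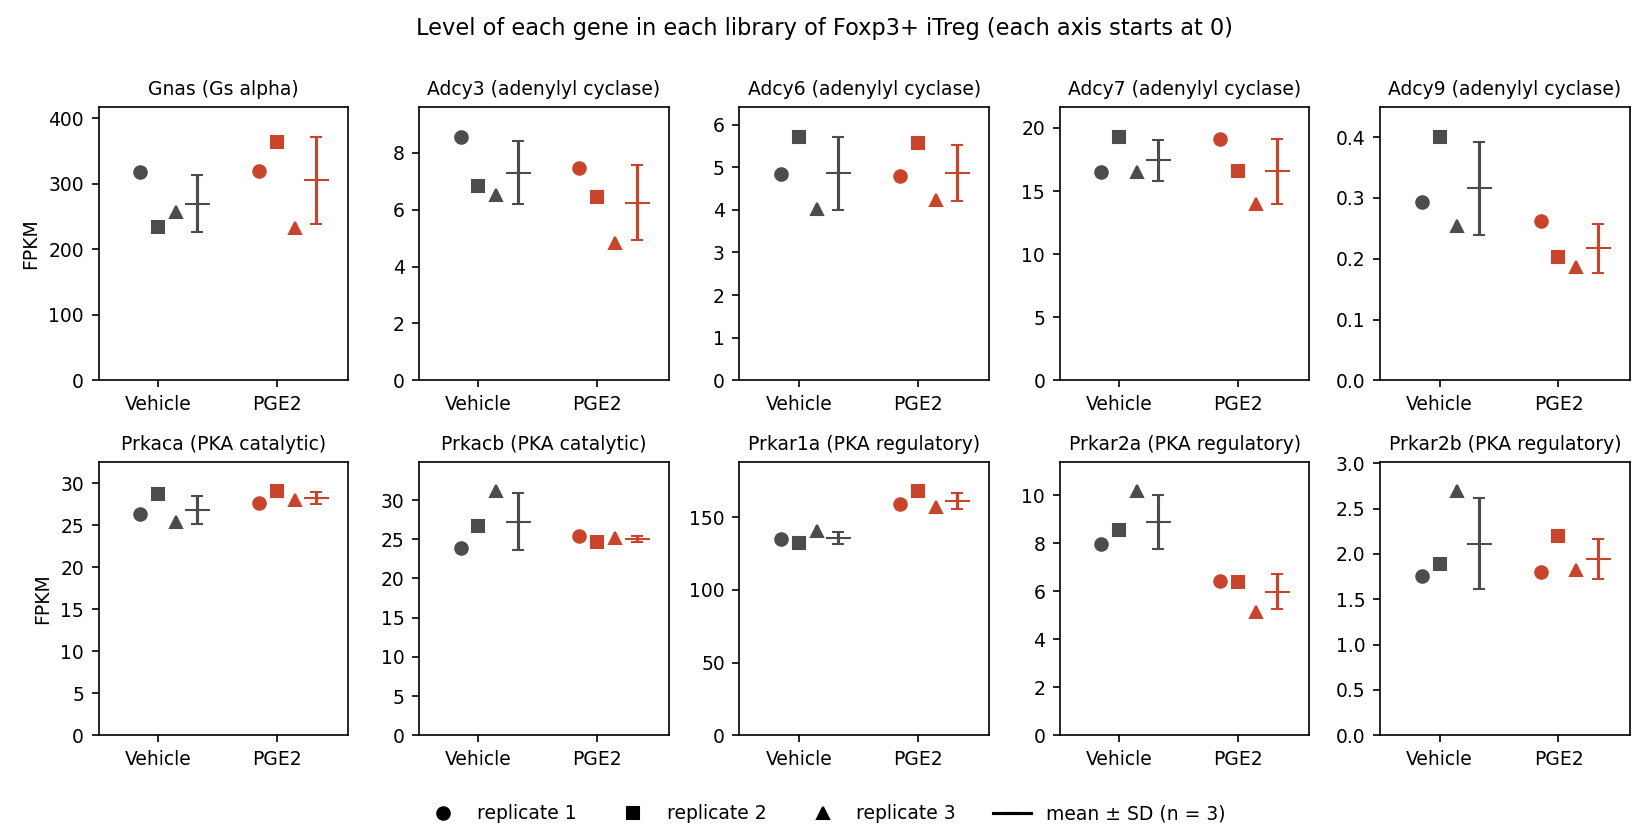
FPKM (vertical axes, each starting at 0) of the 10 genes in the 3 vehicle (grey) and 3 PGE2 (red) libraries, with marker shape for the replicate number and mean ± SD beside the points. The groups do not overlap for Prkar1a, which is higher with PGE2, and for Prkar2a, which is lower, and they overlap for the other 8 genes.

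Of 12113 tested genes, 0.809% passed an adjusted p of 0.05 by limma, 69 that rose (0.57%) and 29 that fell (0.239%) with PGE2. Of the 9 tested genes of the set 0 rose and 0 fell. With the replicate number as a block the set again had 0 and 0, beside 3.26% of all tested genes, 1.77% that rose and 1.49% that fell. At an unadjusted threshold of 0.05 by limma, 1 of the 9 passed upward (Prkar1a) and 1 downward (Prkar2a), beside 13% of all tested genes, 5.46% upward and 7.59% downward. The groups did not overlap for the same 2 of 9 genes, and for 19.7% of all tested genes, 7.81% upward and 11.9% downward. The 9 log2 changes had a median of -0.07 (all tested genes -0.03), and the median of their absolute values was 0.11 (all tested genes 0.12). The 95% interval of the change lay within 0.576 to 1.52 times vehicle for all 9 genes on the log2(FPKM + 1) scale, taken gene by gene.

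Gnas encodes the alpha subunit of the stimulatory G protein (ENSMUSG00000027523.19, chromosome 2 from 174284320 to 174346744, mm10). In vehicle replicates 1, 2 and 3 its level was 318, 234 and 256 FPKM, and in the PGE2 replicates of the same order it was 319.9, 363 and 232 FPKM. The groups overlapped over most of their range, and the lowest of all 6 libraries was PGE2 replicate 3. The log2 change was 0.17 (SE 0.19, 95% interval -0.27 to 0.61, adjusted p = 0.8 with limma), and it ran from 0.03 without PGE2 replicate 2 to 0.35 without PGE2 replicate 3. In scaled coverage, the read depth over the gene divided by the depth of the library, the values were 15, 14.2 and 11.4 with vehicle and 15.5, 16.4 and 13.3 with PGE2, a log2 change of 0.15. Each PGE2 library was thus above the vehicle library of its number in coverage (3 of 3), and 2 of 3 were in FPKM.

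The Gnas locus has several promoters. The annotation used for checking, GENCODE M21, places transcripts for the neuroendocrine secretory protein at the gene's start, for the extra-large form 13539 bases further, from an alternative first exon 43250 to 43703 bases further, and for the stimulatory alpha subunit itself from 45686 bases on. In all 6 libraries the locus assembled by the authors began 43250 bases from the gene's start, and the annotated FPKM was 87.8% to 98.3% of the assembled one. The assembled locus thus took in the alternative first exon and the starts of the stimulatory alpha subunit, but not the starts further upstream, in both groups. How the FPKM divides between these starts was not resolved. Whether reads were counted by strand is not given in the sources used here, and antisense transcripts are annotated over the upstream part.

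Membrane adenylyl cyclases convert ATP to cAMP, and their isoforms differ in regulation. Adcy7 (ENSMUSG00000031659.12), an isoform long known from blood cells, was the most abundant of the 4, at 16.5, 19.3 and 16.5 FPKM with vehicle and 19.2, 16.6 and 14 FPKM with PGE2. The groups overlapped, and the sign of its small difference changed when PGE2 replicate 3 was left out (log2 change -0.08, SE 0.13, and 0.03 without that library). Of the summed cyclase FPKM, Adcy7 made up 58.3 ± 3.19% in vehicle and 59.4 ± 1.62% in PGE2 libraries (SD, n = 3). The shares differed by less than the spread of the vehicle libraries.

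Adcy3 (ENSMUSG00000020654.15), a cyclase best known from olfactory neurons and primary cilia, was at 8.57, 6.83 and 6.52 FPKM with vehicle and 7.45, 6.46 and 4.84 FPKM with PGE2. Each PGE2 library lay below the vehicle library of its number (3 of 3), but the groups overlapped (log2 change -0.2, SE 0.16, adjusted p = 0.67 with limma). Adcy6 (ENSMUSG00000022994.8), a calcium-inhibited isoform, was at 4.83, 5.72 and 4.01 FPKM with vehicle and 4.8, 5.56 and 4.23 with PGE2. Its log2 change of 0.01 (SE 0.14) had an interval of -0.33 to 0.34, and its libraries of equal number lay closer to each other than to the rest of their group. Its sign turned without vehicle replicate 3 or PGE2 replicate 2, and with the assembled locus in place of the annotated gene.

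Adcy9 (ENSMUSG00000005580.11), an isoform that responds little to forskolin, was at 0.293, 0.401 and 0.254 FPKM with vehicle and at 0.262, 0.202 and 0.186 with PGE2. The lowest vehicle value lay between the 2 higher PGE2 values, so the groups overlapped. It was assembled as 2 to 4 separate loci per library, of which the one with the largest overlap covered from 1.17% to 85.7% of the gene's span. No fit used these Adcy9 loci. For Adcy9, a fit of the annotated FPKM of all 26484 genes listed above 0 gave a log2 change of -0.11 (SE 0.05, adjusted p = 0.61 with limma). The cyclases outside the set were lower still: Adcy1, Adcy2, Adcy4, Adcy5 and Adcy10 stayed under the minimum mean for testing, with at most 0.145 FPKM in any library, and Adcy8 was listed at 0 in all 6. Summed over the 4 cyclases of the set, the level was 29.9 ± 2.5 FPKM with vehicle and 27.9 ± 4.3 with PGE2.

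The catalytic subunits carry the kinase activity of PKA, and 2 genes provide nearly all of it in most tissues. Prkaca (ENSMUSG00000005469.9, chromosome 8 from 83972978 to 83996445) was at 26.4, 28.7 and 25.4 FPKM with vehicle and 27.6, 29 and 28 FPKM with PGE2. Prkacb (ENSMUSG00000005034.15, chromosome 3 from 146729574 to 146812990) was at 23.9, 26.7 and 31.1 FPKM with vehicle and 25.4, 24.7 and 25.2 FPKM with PGE2. Both overlapped between groups, with log2 changes of 0.07 (SE 0.08) and -0.11 (SE 0.11). The interval of Prkaca ran from 0.921 to 1.2 times vehicle on the log2(FPKM + 1) scale. The Prkacb values spread more with vehicle (3.63 FPKM SD) than with PGE2 (0.367 FPKM SD), and the highest was that of vehicle replicate 3.

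In FPKM the 2 genes had near-equal parts of the catalytic sum. Prkaca held 49.8 ± 4.15% of it with vehicle and 52.9 ± 1.01% with PGE2. In scaled coverage the share of Prkaca was 91.8% and 92.7%. That quantity is not comparable between genes with different transcript sets, and GENCODE M21 lists 2 transcripts for Prkaca and 8 for Prkacb. The coverage share is therefore no measure of the balance between the genes. The sum itself was 54.1 ± 3.32 and 53.3 ± 0.366 FPKM. It differed by less than the spread of the vehicle libraries.

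Regulatory subunits bind cAMP and hold the catalytic subunits. Prkar1a, the type I alpha subunit (ENSMUSG00000020612.16, chromosome 11 from 109649405 to 109669656), had 135, 133 and 140.4 FPKM in the vehicle libraries, by replicate number, and 159, 168 and 157 FPKM in the PGE2 libraries. All 3 PGE2 libraries lay above all 3 vehicle libraries, and the coefficient of variation within a group was 2.96% and 3.43%. The log2 change was 0.25 (SE 0.08, 95% interval 0.06 to 0.43), with an unadjusted p of 0.015 and an adjusted p = 0.24 with limma, rank 774 of the 12113 tested genes. The adjusted p ranged from 0.15 to 0.61 over the 15 alternatives, and the log2 change from 0.19 to 0.28. Scaled coverage gave a ratio of group means of 1.18, against 1.19 in FPKM.

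Prkar2a, the type II alpha subunit (ENSMUSG00000032601.13, chromosome 9 from 108689314 to 108750436), was at 7.95, 8.56 and 10.2 FPKM with vehicle and at 6.44, 6.37 and 5.13 FPKM with PGE2. Every PGE2 library lay below every vehicle library, and the highest and lowest values were both from replicate 3. The means were 8.89 ± 1.14 and 5.98 ± 0.737 FPKM (SD, n = 3). The log2 change was -0.5 (SE 0.13, 95% interval -0.8 to -0.21), with an unadjusted p of 0.0047 and an adjusted p = 0.14 with limma, rank 416 of the tested genes. It was -0.41 without vehicle replicate 3 or without PGE2 replicate 3 and -0.57 without vehicle replicate 1, and its adjusted p ranged from 0.11 to 0.36 over the 15 alternatives. The ratio of group means was 0.673 in FPKM and 0.671 in scaled coverage. The fitted log2 change in scaled coverage was -0.32, the smallest of the alternatives, on values low enough for the added 1 to weigh more. In each library the assembled locus began 2829 bases past the annotated gene start, at the RefSeq start whose core sequence is shown above.

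Prkar2b, the type II beta subunit (ENSMUSG00000002997.15), was at 1.76, 1.89 and 2.69 FPKM with vehicle and 1.8, 2.2 and 1.82 FPKM with PGE2. The groups overlapped, with vehicle replicate 3 above the rest. The log2 change of -0.07 (SE 0.15) turned to 0.06 without that library. Vehicle replicate 3, the library of least depth, held the highest vehicle value of these 3 regulatory subunits and of Prkacb, and the lowest of Adcy3, Adcy6, Adcy7, Adcy9 and Prkaca. The part of depth in these values was not tested.

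**Figure D2:**
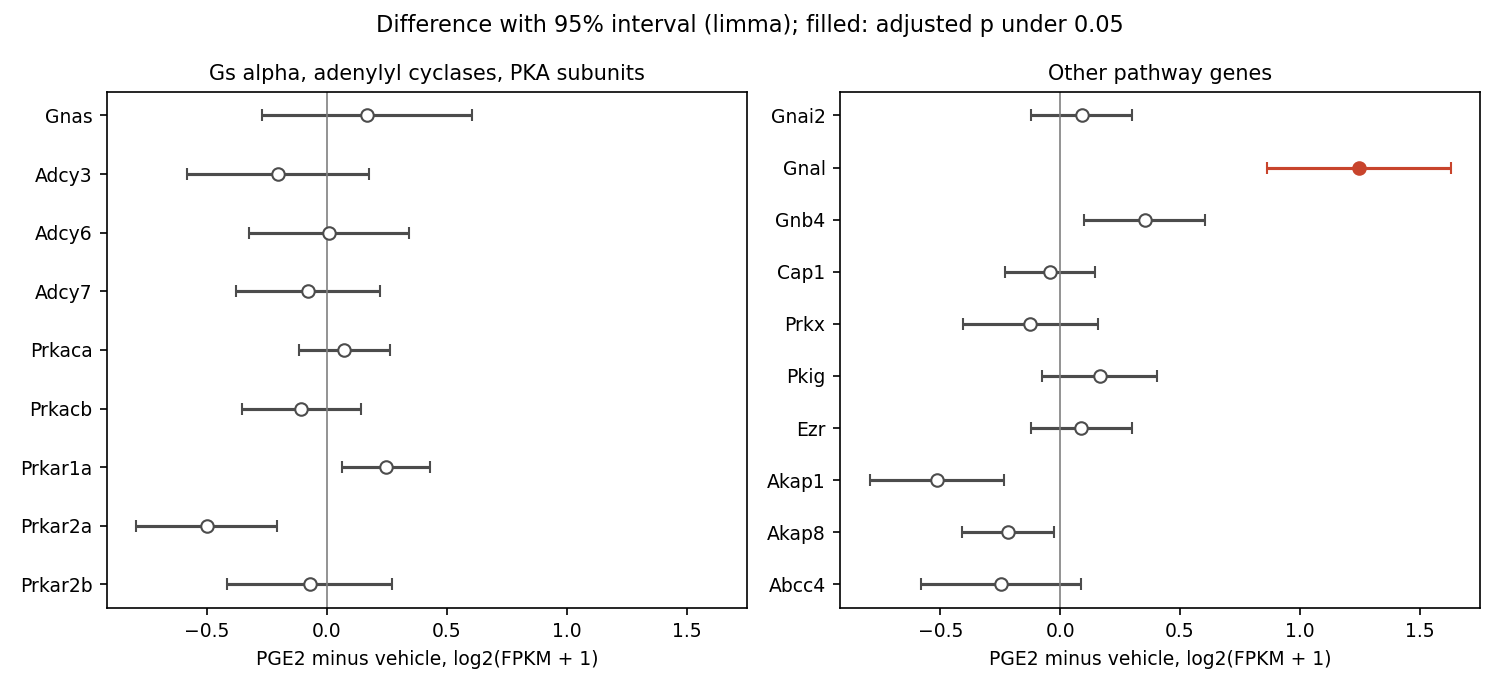
Difference between PGE2 and vehicle on the log2(FPKM + 1) scale (horizontal axes) with 95% intervals from limma, for the 9 tested genes of the set (left) and the genes named from the pathway lists (right). Prkar1a and Prkar2a have intervals that exclude 0 on opposite sides without passing the adjusted threshold, and Gnal alone is filled, for an adjusted p under 0.05.

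The regulatory sum was taken over Prkar1a, Prkar2a and Prkar2b, without Prkar1b, which lay outside the set at a level near that of Prkar2b. As a share of this sum, Prkar1a held 93.3%, 92.7% and 91.6% of the summed FPKM with vehicle and 95.1%, 95.1% and 95.8% with PGE2. Prkar2a held 5.5%, 5.99% and 6.62% with vehicle and 3.84%, 3.61% and 3.12% with PGE2. With Prkar1b in the sum, the share of Prkar1a was 91 ± 0.599% and 94 ± 0.579%, and the groups stayed apart. Prkar1b held 1.68 ± 0.254% of that sum with vehicle and 1.37 ± 0.248% with PGE2, too little to bring them together. The ratio of Prkar1a to Prkar2a was 17, 15.5 and 13.8 with vehicle and 24.8, 26.3 and 30.7 with PGE2, so the groups lay apart. This ratio was chosen after the values were seen and is given as a description, without a test. The regulatory sum was 147 ± 5.51 FPKM with vehicle and 169 ± 6.24 with PGE2, and most of it is Prkar1a. Set against the catalytic sum, this gave 2.72 ± 0.146 regulatory per catalytic FPKM with vehicle and 3.18 ± 0.0979 with PGE2. These are transcript levels, and protein was not measured.

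**Figure D3:**
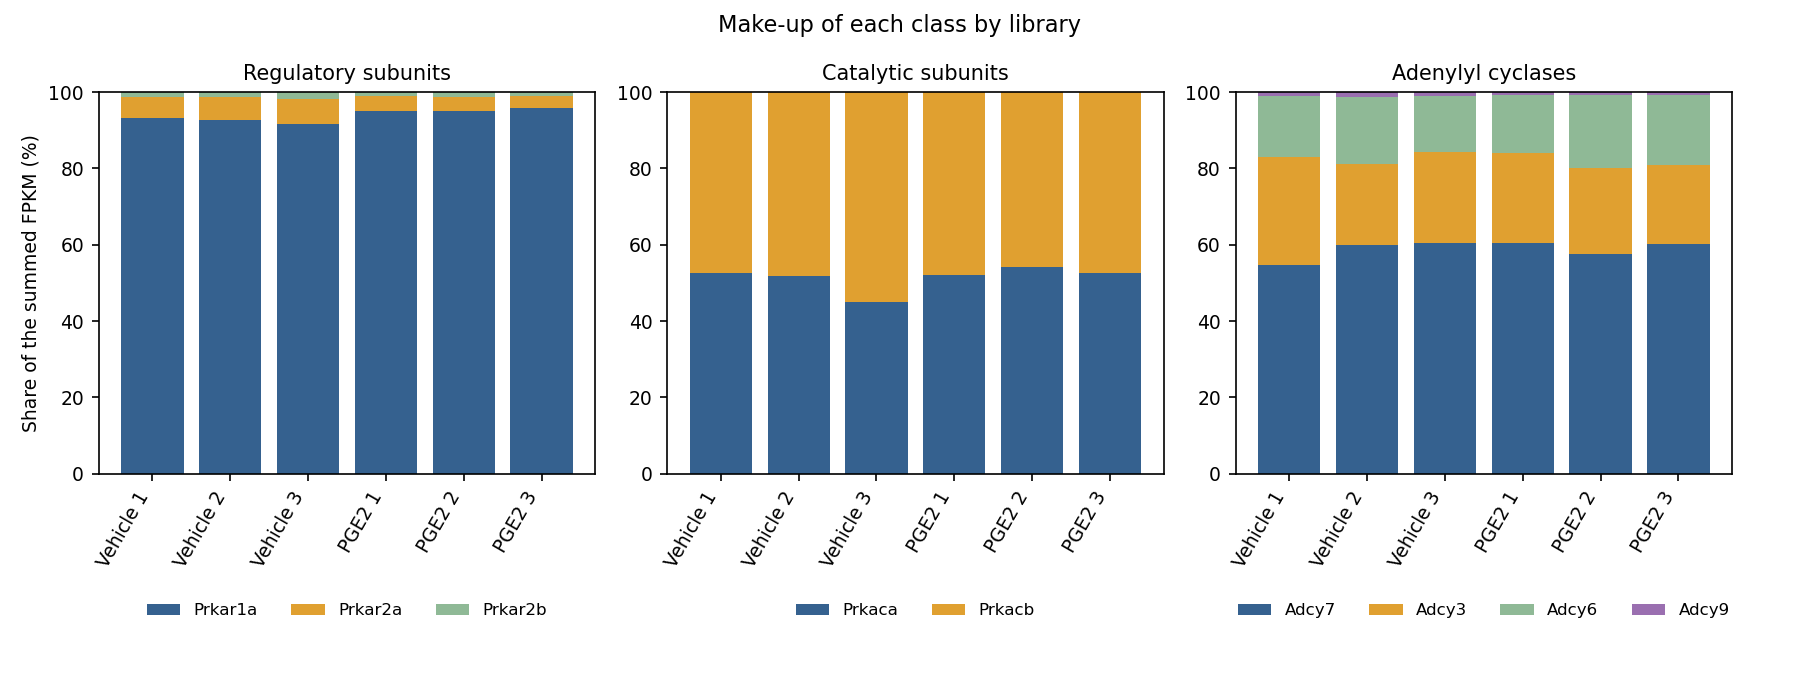
Share of the summed FPKM (vertical axis, percent) held by each gene within the regulatory subunits (without Prkar1b), the catalytic subunits and the adenylyl cyclases, 1 bar per library. Prkar1a fills 91.6% to 95.8% of the regulatory bars, Prkaca and Prkacb have near-equal parts of theirs in FPKM, and Adcy7 fills at least 54.7% of each cyclase bar.

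Among other G protein subunits, of 17 tested members of the list 1 rose and 0 fell by limma. At the unadjusted threshold of 0.05, 2 passed upward and 0 downward, beside 5.46% and 7.59% of all tested genes. Its genes had a median log2 change of 0.12, against -0.03 over all tested genes, of which 0.57% rose. The one that rose was Gnal, which encodes the olfactory alpha subunit, a close relative of the Gnas product that also activates adenylyl cyclase (ENSMUSG00000024524.16, chromosome 18 from 67088336 to 67226792). By replicate number, the vehicle libraries held 7.8, 7.5 and 5.53 FPKM of Gnal and the PGE2 libraries 19.8, 19.4 and 14.3 FPKM. The lowest PGE2 library was well above the highest vehicle library, and in both groups replicate 3 was lowest. The log2 change was 1.25 (SE 0.16, 95% interval 0.86 to 1.63, adjusted p = 0.025 with limma), 2.37-fold on the log2(FPKM + 1) scale, and it was as large in scaled coverage (1.21). With the replicate block the adjusted p was 0.0022. It missed the threshold without vehicle replicate 1 (adjusted p = 0.074), vehicle replicate 2 (0.078), PGE2 replicate 1 (0.11) or PGE2 replicate 2 (0.13), and with no filter on low genes (0.13), while its log2 change stayed between 1.11 and 1.39 over all 14 alternatives.

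Even with PGE2, Gnal remained far below Gnas in FPKM. The assembled Gnal locus began 44959 bases past the gene's annotated start in vehicle replicate 1 and 45490 bases past it in the other 5 libraries. It thus did not reach the first exons of the longest annotated form in any library. Gnai2, an alpha subunit of the inhibitory class and the highest of the list, was at 307 ± 16.5 and 327 ± 14.4 FPKM (adjusted p = 0.76 with limma), and it changed sign with quantile normalization. Gnb4, a beta subunit, was at 3.79 ± 0.444 and 5.1 ± 0.256 FPKM (log2 change 0.35, SE 0.11, adjusted p = 0.21).

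**Figure D4:**
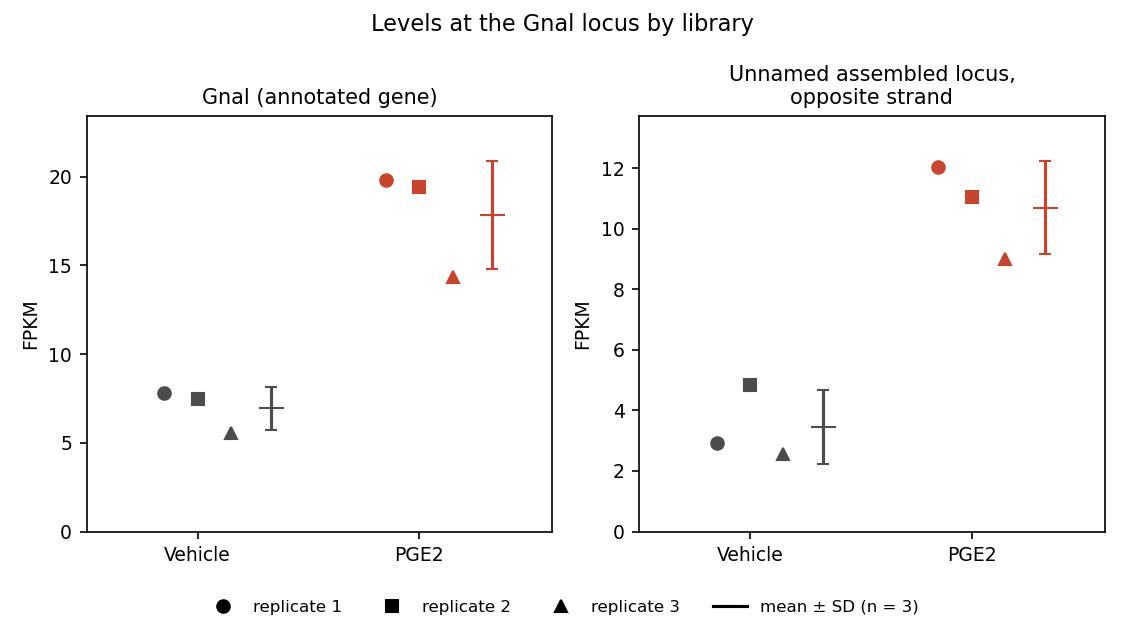
FPKM (vertical axes from 0) of the annotated gene Gnal and of an unnamed locus assembled on the opposite strand, by library, with mean ± SD beside the points. The unnamed locus overlaps the start of the assembled Gnal locus, which lies inside the annotated gene. In both panels all 3 PGE2 libraries lie above all 3 vehicle libraries.

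Anchoring proteins hold PKA near its substrates through the regulatory dimer. Of 13 tested A-kinase anchoring proteins 0 rose and 0 fell by limma, also with the replicate block. Of all tested genes 0.809% were called, and 3.26% with the block. At the unadjusted threshold 0 anchors passed upward and 2 downward, beside 5.46% and 7.59% of all tested genes. These anchors had a median log2 change of -0.14, against -0.03 over all tested genes. Akap1, which tethers PKA to the outer mitochondrial membrane, was at 5.99, 5.04 and 5.51 FPKM with vehicle and 3.05, 4.03 and 3.64 FPKM with PGE2. These groups did not overlap (log2 change -0.51, SE 0.12, adjusted p = 0.12 with limma, and 0.088 with the replicate block). The same held downward for 4 of the 13 tested anchors, Akap1 and Akap8 among them, and upward for 0. Over all tested genes the groups did not overlap for 11.9% downward and 7.81% upward. Akap8, a nuclear anchor, was at 34.1 ± 0.505 and 29.2 ± 1.94 FPKM (adjusted p = 0.32), and Ezr, the membrane linker ezrin and the highest of the list, at 127 ± 7.35 and 135 ± 8.68 FPKM (adjusted p = 0.76).

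The remaining parts of the pathway had few tested genes, and Prkar1b, Pkib, Pkia and Rapgef3 are named here after their values were seen. Over all tested genes 0.809% were called and 13% had an unadjusted p under 0.05 by limma. Beside these shares stood 0 and 0 of the 3 other PKA genes that were tested. They were Prkar1b, the type I beta subunit, at 2.51 ± 0.32 and 2.35 ± 0.439 FPKM, Prkx, a PKA-like kinase, at 8.26 ± 0.809 and 7.51 ± 1.04 FPKM, and Pkig, an inhibitor protein of PKA, at 5.39 ± 0.435 and 6.16 ± 0.486 FPKM. Pkib, another PKA inhibitor, was just under the minimum mean, at 0.751, 0.8 and 0.845 FPKM with vehicle and 0.911, 1.1 and 1.56 with PGE2, and Pkia reached at most 0.00615 FPKM. Cap1, the cyclase-associated actin regulator, was the 1 tested gene of its list, at 160 ± 6.1 and 155 ± 4.6 FPKM (adjusted p = 0.89 with limma). Abcc4, a transporter that exports cAMP, was the 1 tested gene among other effectors and export, at 4.35 ± 0.393 and 3.54 ± 0.716 FPKM (adjusted p = 0.54). Rapgef3, a cAMP-gated exchange factor of the Epac kind, was at 1.41, 0.621 and 0.346 FPKM with vehicle and 1.85, 0.905 and 0.663 with PGE2, in both groups highest in replicate 1.

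The genes whose pattern over the 6 libraries was most like that of Prkar2a, among 10046 protein-coding tested genes, were Kdm1b (Pearson r = 0.994), Heatr1 (0.992) and Eif2s3x (0.991). They encode a histone demethylase, a factor of ribosome biogenesis and a subunit of a translation initiation factor. Heatr1 had means of 9.06 ± 0.954 FPKM with vehicle and 6.32 ± 0.61 FPKM with PGE2 (limma, adjusted p = 0.13). Those most like Gnas were Arfgap1 (0.987), Dpp3 (0.98) and Zbtb32 (0.979). The 6 points share libraries, scaling and the 2 groups, and the values describe likeness only.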

How the data were processed

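RNA from sorted Foxp3+ iTreg was sequenced from stranded mRNA libraries, per the labels' protocols. Trim Galore, HISAT2 and the build mm10 are named, per the submitters' processing notes, but which program computed gene values is not given in the sources used here. The deposited tables give FPKM, coverage (a depth signal averaged over the gene) and TPM per gene, under column names set by the authors. The deposited TPM column was read as a score and not used. All values rest on the FPKM of annotated genes, and the 47643 IDs were found in each library. Values of an ID listed more than once (14 to 19 IDs per library) were added up. Genes whose mean reached 1 FPKM across the libraries entered the test on log2(FPKM + 1) with limma 3.58.1 (R 4.3.3, trended variance, two-sided, Benjamini-Hochberg adjustment over 12113 genes, threshold 0.05). Intervals are 95% and cover the spread between libraries only. No read counts were at hand, so no count model was run.

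The members and lists were chosen with earlier results of these data known. Named genes were all members and, from each pathway list, the highest, every called gene and the 2 with the smallest p, with 3 label checks and the 3 genes most like Gnas and like the member of smallest p. Same-numbered libraries deviated from their group means together, with correlations of 0.23, 0.31 and 0.53, each above 0.1. Libraries of different number passed 0.1 too: vehicle replicate 2 with PGE2 replicate 1 (0.27) and vehicle replicate 1 with PGE2 replicate 2 (0.15). Correlations of replicate 3 with the other numbers were negative. The correlations thus do not establish a pairing by number, and the block is an alternative only. The labels do not say what the numbers share. Alternatives were another pseudocount, 2 other filters, scaled coverage, 2 other scalings, no variance trend, a replicate block, each library left out and the assembled locus in place of the annotated gene. The coverage was scaled by its ratio to FPKM, from genes of a single transcript. Tested on simulated data for PGE2 against vehicle over 12113 genes, the fit recovered 28% of 100 genes changed 1.5-fold and 69% of 100 changed 2-fold, with 5 false calls. Promoter windows came from RefSeq (GRCm38.p6).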

Additional observations from a re-analysis of the deposited data

Results flagged for a closer look

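An assembled locus without a gene name lay on the strand opposite to Gnal, as the files list strands, and overlapped the start of the assembled Gnal locus by 202 to 733 bases on chromosome 18. It was outside the tables of named genes used above. Its level was 2.92, 4.85 and 2.57 FPKM in vehicle replicates 1, 2 and 3 and 12, 11 and 9.01 FPKM in PGE2 replicates 1, 2 and 3, with means of 3.45 ± 1.23 and 10.7 ± 1.54 FPKM (SD, n = 3). It drew attention because all PGE2 libraries were above all vehicle libraries, the controls, in data that no comparison used. That separation was itself the rule for listing the locus, and only the surroundings of the Gnal start were searched. Among all tested annotated genes the groups did not overlap upward for 7.81%. No such share was taken over the assembled loci. The locus spanned 9046 to 11487 bases, with ends that differed between libraries, and the difference was not tested.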

How the results depend on the processing

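The members called stayed at 0 higher and 0 lower under each alternative run. Of the log2 changes of members under alternatives, 128 kept direction and side of the threshold and 5 reversed: Adcy6 (0.01) to -0.10 without Vehicle replicate 3, -0.08 without PGE2 replicate 2 and -0.23 with the assembled locus, Prkar2b (-0.07) to 0.056 without Vehicle replicate 3, and Adcy7 (-0.08) to 0.032 without PGE2 replicate 3. With 1 library left out, the ranges were -0.10 to 0.11 for Adcy6, -0.15 to 0.056 for Prkar2b and -0.18 to 0.032 for Adcy7. Of the other pathway genes, 131 kept both, 5 (all Gnal, above) missed the threshold and Gnai2 reversed to -0.032 with quantile normalization. The cause was not tested. Over all genes, 69 rose and 29 fell, against 33 and 12 with no filter, 112 and 47 in scaled coverage, 16 that fell with no variance trend, and 16 to 53 and 4 to 16 with 1 library left out, where fewer samples were fitted. With the replicate block, 215 rose and 180 fell, and the block changed no member's call. Of the calls, 70.4% were higher, against 54.4% with the block. In scaled coverage, which is not comparable between genes with different transcript sets, Prkar1a held 94.9% (vehicle) and 96.5% (PGE2) of the regulatory sum, Prkaca 91.8% and 92.7% of the catalytic sum and Adcy7 46.6% and 45.4% of the cyclase sum, with 2.40 and 2.66 regulatory per catalytic unit and 42.1 and 74.2 Prkar1a per Prkar2a. With Prkar1b added to the regulatory sum, an alternative chosen after seeing the data, Prkar1a held 91.0% and 94.0%. Depth per gene in reads is not known, and Adcy9 was too low to test.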
